A study of Mus musculus with 17 samples.

Results

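The proteasome genes comprised 47 of the 17097 genes named on the arrays, taken as every gene whose single annotated symbol begins with Psma, Psmb, Psmc, Psmd, Psme, Psmf or Psmg. Where a gene had several probe sets, the brightest one on average across the 17 arrays stood for it. By known role, 30 were constitutive subunits and 5 belonged to the immunoproteasome (Psmb8, Psmb9, Psmb10, Psme1 and Psme2). A further 6 were assembly chaperones (Psmd5, Psmd9 and Psmg1 to Psmg4), 2 encoded the activator Psme3 and the inhibitor Psmf1, and 2 were the tissue-restricted Psma8 and Psmb11. The last 2, Psmc3ip and Psme3ip1, carry the prefix without being subunits. Psmc6, Psmd10 and Psme4 were not analysed here. Of the 47 genes, 46 had a group mean above the median of all values (3.83 on the log2 scale) and were tested, and Psmb11 was not.

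The arrays measured total RNA (300 ng each) from C57/Bl6 mice of wildtype genotype. Leukemia arrays held splenocytes of irradiated recipient mice (4 to 8 weeks old, 4.5 to 6 Gy) that were given Myc/Bcl2-transformed cells of CD45.2 donors. The transformed cells were thymic DN2 cells, an early T-cell progenitor stage lacking CD4 and CD8 (DN2 leukemia, 5 arrays), LSK marrow cells, a population enriched for stem cells (LSK leukemia, 3 arrays), or granulocyte-macrophage progenitors (GMP leukemia, 5 arrays). Healthy DN2 and healthy GMP cells, untransformed and not transplanted, had 2 arrays each. The labels give a sort for myeloid cells positive for CD11b and Gr1 and negative for CD3, CD4 and CD8 for the leukemic spleens, and they do not say whether replicates came from separate mice, so p-values measure only the spread between these samples.

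Several arrays went against their labels. Mycn was at 11.58 to 12.10 in DN2 leukemia and 12.06 to 13.15 in GMP leukemia, but at 12.82, 4.91 and 4.22 in LSK leukemia, against 4.21 and 4.52 in healthy DN2 and 3.96 and 4.58 in healthy GMP cells. Arrays 2 and 3 of LSK leukemia were therefore at the healthy level of Mycn. Myc itself was at 5.48 to 6.49 in all 13 leukemia arrays and at 10.10 to 10.65 in the 4 healthy ones. The sample titles give Myc/Bcl2 and do not name Mycn. Bcl2 was at 11.30, 6.75 and 5.27 in LSK leukemia, 9.25 to 9.94 in DN2 leukemia and 10.08 to 11.53 in GMP leukemia. It was at 6.99 and 6.78 in healthy DN2 and at 6.51 and 5.89 in healthy GMP cells. Cd3e, a T-cell receptor component excluded by the sort, was at 7.79 to 9.06 in DN2 leukemia. Itgam encodes CD11b, for which the labels give a positive sort. It exceeded 7 in arrays 1 and 3 of DN2 leukemia and was at 3.24 to 3.47, against the sort, in the other 3. Several counts and values below are also given without arrays 2 and 3 of LSK leukemia. Some are also given without arrays 1 and 3 of DN2 leukemia, the arrays of that group with Itgam above 7.

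The proteasome is the protease that degrades ubiquitin-tagged proteins. Its 20S core stacks rings of alpha subunits (Psma genes), which gate the chamber, and of beta subunits (Psmb genes), which hold the catalytic sites, and its 19S cap recognises, unfolds and feeds in substrates through ATPases (Psmc genes) and non-ATPase subunits (Psmd genes). In blood cells and after interferon, the catalytic subunits Psmb6, Psmb5 and Psmb7 are replaced by Psmb9, Psmb8 and Psmb10, and the 11S activator of Psme1 and Psme2 can cap the core. This immunoproteasome yields many of the peptides presented on MHC class I. Dedicated chaperones assemble the core and the cap before they join.

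Upstream sequences are shown for the 5 immunoproteasome genes, which moved together, and for Psmg1 and Psme3, which were lowest in LSK leukemia. They are the 250 bases before the start of each gene in RefSeq (GRCm38.p6), 5′ to 3′ on the gene's own strand, and capitals mark matches to the motifs described after them.
Psmb8: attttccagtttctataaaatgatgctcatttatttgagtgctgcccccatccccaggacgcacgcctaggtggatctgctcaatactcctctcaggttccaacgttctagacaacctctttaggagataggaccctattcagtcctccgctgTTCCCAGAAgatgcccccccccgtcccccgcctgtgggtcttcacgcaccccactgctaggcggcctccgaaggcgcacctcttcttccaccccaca
Psmb9: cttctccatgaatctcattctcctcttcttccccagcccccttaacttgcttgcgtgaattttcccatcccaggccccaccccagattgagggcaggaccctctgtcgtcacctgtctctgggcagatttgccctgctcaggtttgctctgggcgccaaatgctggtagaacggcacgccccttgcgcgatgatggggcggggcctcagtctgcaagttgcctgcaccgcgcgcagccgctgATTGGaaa
Psmb10: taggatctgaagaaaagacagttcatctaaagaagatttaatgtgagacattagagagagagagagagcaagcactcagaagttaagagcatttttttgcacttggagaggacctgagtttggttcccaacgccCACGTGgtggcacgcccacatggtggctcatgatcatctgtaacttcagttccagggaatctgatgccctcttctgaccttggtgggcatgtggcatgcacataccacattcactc
Psme1: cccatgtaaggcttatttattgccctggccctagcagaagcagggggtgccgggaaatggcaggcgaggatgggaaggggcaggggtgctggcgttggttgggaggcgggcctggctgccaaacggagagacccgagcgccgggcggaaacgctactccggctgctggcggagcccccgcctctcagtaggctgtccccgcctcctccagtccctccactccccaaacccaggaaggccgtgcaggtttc
Psme2: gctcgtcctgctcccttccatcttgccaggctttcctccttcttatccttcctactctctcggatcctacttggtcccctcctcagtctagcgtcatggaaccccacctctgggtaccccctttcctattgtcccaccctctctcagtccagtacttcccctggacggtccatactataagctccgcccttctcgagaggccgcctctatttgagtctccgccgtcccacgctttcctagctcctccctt
Psmg1: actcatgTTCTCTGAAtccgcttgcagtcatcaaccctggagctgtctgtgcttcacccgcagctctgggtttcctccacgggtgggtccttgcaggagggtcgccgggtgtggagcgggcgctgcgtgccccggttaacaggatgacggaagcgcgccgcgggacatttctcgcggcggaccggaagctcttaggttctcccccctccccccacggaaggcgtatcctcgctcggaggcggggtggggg
Psme3: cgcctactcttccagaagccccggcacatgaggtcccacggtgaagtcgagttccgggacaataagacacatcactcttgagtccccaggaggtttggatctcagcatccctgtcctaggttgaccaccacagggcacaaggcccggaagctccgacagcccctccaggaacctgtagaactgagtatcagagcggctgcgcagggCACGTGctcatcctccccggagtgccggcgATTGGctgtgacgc

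The stretches of Psmb8 (chr17:34197945-34198194, forward strand) and Psmb9 (chr17:34187331-34187580, reverse strand) lie within 1 neighbourhood of the MHC, where RefSeq places Tap1 and Tap2 beside them. Those of Psme1 (chr14:55578244-55578493, forward strand) and Psme2 (chr14:55591102-55591351, reverse strand) also share a chromosome. Psmb10 (chr8:105938393-105938642, reverse strand), Psmg1 (chr16:95990961-95991210, reverse strand) and Psme3 (chr11:101315963-101316212, forward strand) lie elsewhere. RefSeq windows of 300 bases (250 before and 50 after the start) were matched for 39 of the 47 genes and searched on both strands for 5 motifs, whose matches may overlap one another. A gene counted if any of its windows held the motif, whereas the shares over all are per window. An interferon-type element (GAAA, 2 free bases, GAAA) was found for 5 of the 39 genes (12.8%), against 3.44% of all 32851 windows. Of the immunoproteasome genes only Psme1 held it, 9 bases after the start and so outside the stretch printed. The other genes that held it were the constitutive Psmb3 and Psmd4 and the assembly chaperones Psmd9 and Psmg4. The STAT-type motif TTCNNNGAA was found for 3 of 39, namely Psmb8, Psmd2 and Psmg1 (7.69%, against 8.3% of all windows). The E-box CACGTG, which the Myc family is known to bind, was found for 5 of 39 (12.8%, against 7.15%). These were Psma4, Psmb10, Psmd9, Psme3 and Psme3ip1. CCAAT was found for 15 of 39 (38.5%, against 37.4%). The antioxidant-type motif TGACNNNGC was found for 4 of 39, namely Psmb5, Psmb6, Psmd9 and Psmd12 (10.3%, against 12.4%). The printed Psme2 stretch held none of the 5. These matches describe letters in the windows and are not measured sites.

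The immunoproteasome genes were lowest in GMP leukemia. All 5 had their lowest group mean there, and their mean per array was 11.19 ± 0.36 in DN2 leukemia (SD, n = 5), 11.28 ± 0.25 in LSK leukemia (n = 3), 10.37 ± 0.21 in GMP leukemia (n = 5), 11.19 ± 0.04 in healthy DN2 cells (n = 2) and 11.16 ± 0.10 in healthy GMP cells (n = 2). The 30 constitutive subunits ran in another order, with 24 of them lowest in LSK leukemia and 24 highest in healthy GMP cells. All values here are log2 expression as deposited, and differences are log2 differences on that scale, tested with limma over 11625 genes with Benjamini-Hochberg adjustment and called at an adjusted p under 0.05.

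**Figure D1:**
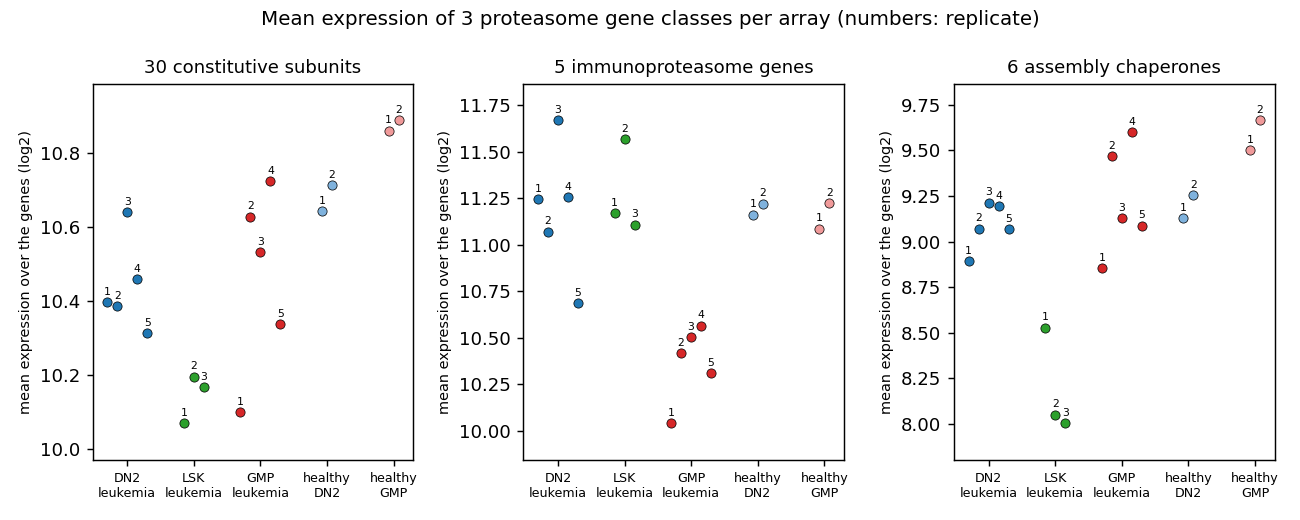
Mean log2 expression over the 30 constitutive subunits, the 5 immunoproteasome genes and the 6 assembly chaperones in each array (points, numbered by replicate) of the 5 groups. The immunoproteasome means of GMP leukemia (10.04 to 10.57) lie below those of all other groups, and the assembly means of LSK leukemia (8.00 to 8.53) lie below those of all other groups.

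Psmb8, the inducible chymotrypsin-like subunit that takes the place of Psmb5, was at 11.61, 11.69, 12.05, 11.78 and 11.25 in DN2 leukemia and at 11.31, 11.94 and 11.50 in LSK leukemia. In GMP leukemia it was at 10.29, 11.07, 10.59, 10.99 and 10.41, against 11.56 and 11.72 in healthy GMP cells, and in healthy DN2 cells it was at 11.90 and 12.00. Every GMP leukemia array was below every other array. Psmb8 was 1.01 ± 0.19 higher in DN2 than in GMP leukemia (SE, limma adjusted p = 0.000558, 2.01-fold) and 0.91 ± 0.22 higher in LSK than in GMP leukemia (adjusted p = 0.00639). GMP leukemia fell by 0.97 ± 0.25 relative to healthy GMP cells (adjusted p = 0.0131).

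Psmb9, which replaces Psmb6, was at 10.54, 9.94, 10.97, 10.27 and 9.93 in DN2 leukemia, at 10.39, 11.31 and 10.82 in LSK leukemia, and at 9.09, 9.24, 9.90, 9.69 and 9.64 in GMP leukemia. Healthy DN2 cells had 10.57 and 10.51, and healthy GMP cells 10.39 and 10.61. The GMP leukemia arrays again did not overlap any other group, though the lowest DN2 leukemia array stood only just above the highest of them. The log2 difference was 0.82 ± 0.23 for DN2 over GMP leukemia (limma adjusted p = 0.00992), 1.33 ± 0.26 for LSK over GMP leukemia (adjusted p = 0.00212) and -0.99 ± 0.30 for GMP leukemia over healthy GMP cells (adjusted p = 0.031). A second Psmb9 probe set gave 0.82, 1.55 and -0.31 for the same comparisons, and the last of these was not called when that probe set was used.

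Psmb10, the trypsin-like counterpart of Psmb7, was at 10.87, 10.67, 11.38, 10.95 and 9.94 in DN2 leukemia, at 10.74, 11.07 and 10.55 in LSK leukemia and at 9.30, 10.07, 9.75, 10.20 and 9.59 in GMP leukemia. In healthy DN2 cells it was at 10.64 and 10.75 and in healthy GMP cells at 10.79 and 10.95. Array 5 of DN2 leukemia lay within the range of GMP leukemia, and no other array did. The difference was 0.98 ± 0.24 for DN2 over GMP leukemia (limma adjusted p = 0.00388), 1.01 ± 0.27 for LSK over GMP leukemia (adjusted p = 0.0133) and -1.09 ± 0.31 for GMP leukemia over healthy GMP cells (adjusted p = 0.0232).

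Psme1 and Psme2 encode the alternating subunits of the 11S activator. Psme1 was at 11.80, 11.87, 12.16, 11.83 and 11.56 in DN2 leukemia, at 11.89, 11.75 and 11.43 in LSK leukemia, at 11.11, 11.12, 11.17, 11.12 and 11.20 in GMP leukemia, at 11.66 and 11.67 in healthy DN2 and at 11.53 and 11.68 in healthy GMP cells. Its GMP leukemia arrays were the tightest of the 5 genes (SD 0.04) and below all others. Psme2 was at 11.40, 11.17, 11.78, 11.45 and 10.74 in DN2 leukemia, at 11.51, 11.77 and 11.23 in LSK leukemia, at 10.41, 10.59, 11.11, 10.82 and 10.71 in GMP leukemia, at 11.03 and 11.19 in healthy DN2 and at 11.17 and 11.17 in healthy GMP cells. Psme1 was 0.70 ± 0.12 higher in DN2 than in GMP leukemia (limma adjusted p = 0.000296) and Psme2 0.58 ± 0.19 higher (adjusted p = 0.0212). Over GMP leukemia, LSK leukemia was 0.54 ± 0.14 higher for Psme1 (adjusted p = 0.00999) and 0.77 ± 0.21 higher for Psme2 (adjusted p = 0.015). Against healthy GMP cells the GMP leukemia differences were -0.46 ± 0.16 for Psme1 (limma adjusted p = 0.0563) and -0.44 ± 0.25 for Psme2 (adjusted p = 0.219), neither of which was called. In 4 of 17 alternatives Psme1 was called there, among them no filter on low values and limma's array weights, and Psme2 was called in 0 of 17. RefSeq also lists Psme2b, a near copy of Psme2, and how far the probe set separates them is not known.

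**Figure D2:**
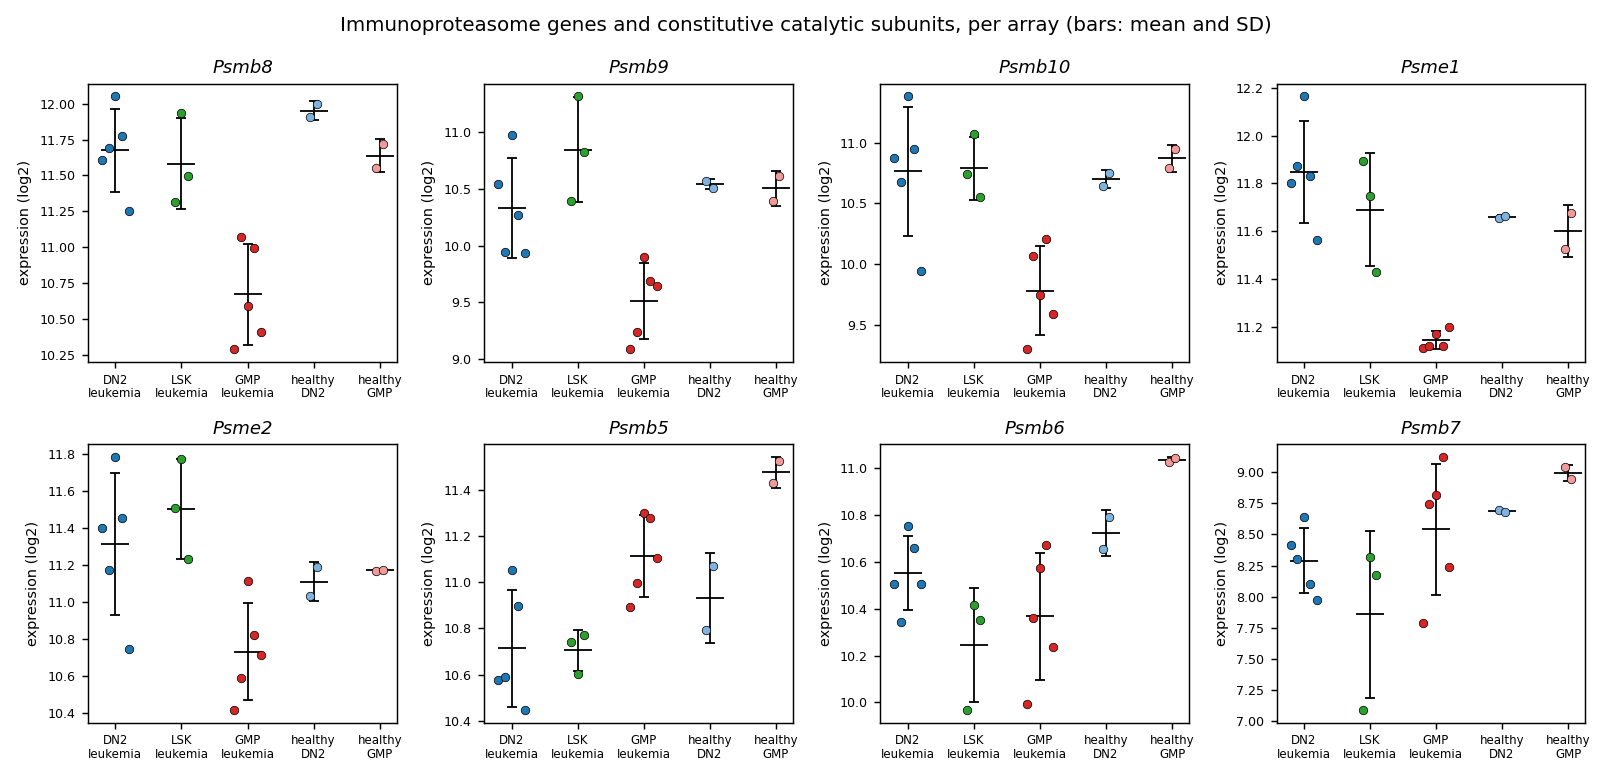
Log2 expression of the 5 immunoproteasome genes and the 3 constitutive catalytic subunits they replace or accompany (Psmb5, Psmb6, Psmb7) in each array (points), with the mean and SD per group (bars). GMP leukemia is lowest for all 5 immunoproteasome genes, while Psmb5 is lower in DN2 than in GMP leukemia (-0.40).

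As a group, 5 of 5 immunoproteasome genes were called higher in DN2 than in GMP leukemia, where 21.0% of all genes tested were, and their median difference was 0.82 beside 0.03 for all genes. LSK over GMP leukemia gave 5 of 5 as well, beside 10.3% of all genes, with a median of 0.91 beside -0.06. Both comparisons share the GMP leukemia arrays. GMP leukemia against healthy GMP cells gave 3 of 5 lower, beside 13.1% of all genes, with a median of -0.97 beside -0.12, and the median was -0.46 when the mean of all probe sets or the most variable one stood for each gene. Without arrays 1 and 3 of DN2 leukemia, 3 of the 5 stayed called over GMP leukemia, and Psmb9 and Psme2 did not. Without arrays 2 and 3 of LSK leukemia, 1 of the 5 (Psme1) was called over GMP leukemia, with the remaining LSK array assumed to vary like the other groups. Without either healthy GMP array, 0 of the 5 were called against GMP leukemia by limma (4 of 5 had an unadjusted p under 0.05 with both), with the lone healthy array treated alike, and the median ranged from -1.05 to -0.87 over the arrays left out in turn.

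No immunoproteasome gene was called by limma between DN2 and LSK leukemia, where 28.4% of all genes were called higher and 19.1% lower. None was called between DN2 leukemia and healthy DN2 cells either, beside 9.49% higher and 13.7% lower, and 0 of 5 had an unadjusted p under 0.05 in either comparison. Psmb9, at -0.51 for DN2 over LSK leukemia, was called in 7 of 20 alternatives, among them the most variable probe set (-0.73), median centring (-0.63) and leaving out arrays 1 and 3 of DN2 leukemia (-0.79). The differences against healthy DN2 cells ran from -0.28 ± 0.25 for Psmb8 to 0.20 ± 0.24 for Psme2 (SE). Against healthy GMP cells the GMP leukemia differences ran from -1.09 to -0.44, so the signed difference of the DN2 pair minus that of the GMP pair, tested as an interaction, was 0.64 to 1.16. That test called 0 of 5, beside 12.7% of all genes, with adjusted p values of 0.0806 for Psme1 to 0.269 for Psmb9, while 2 of 5 had an unadjusted p under 0.05. Without array 5 of DN2 leukemia, Psmb10 and Psme1 were called in it. Leaving out any other single leukemia array called none of the 5. With limma's array weights on all arrays the interaction called 4 of the 5, when 5243 of all 11625 genes tested were called.

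Markers of several cell types differed between the same groups. The 7 tested T-cell markers averaged 10.36 (10.22 to 10.61) in DN2 leukemia and 4.77 (4.56 to 5.18) in LSK leukemia. They averaged 4.29 (4.17 to 4.45) in GMP leukemia, 7.03 in healthy DN2 and 3.79 in healthy GMP cells. All 7 were called higher in DN2 than in GMP leukemia, beside 21.0% of all genes. The 8 myeloid markers averaged 4.61, 11.61, 11.76, 4.70 and 9.58 in the same groups. None of the 8 differed by the test between LSK and GMP leukemia, where 10.3% of all genes were higher and 16.5% lower. The 5 MHC class II genes averaged 5.68 (3.78 to 8.82) in DN2 leukemia, 8.96 (7.47 to 9.76) in LSK leukemia and 4.90 (4.20 to 6.20) in GMP leukemia. The part of cell composition in the immunoproteasome differences was not tested, and in bulk RNA fewer cells of a type and less RNA per cell cannot be told apart.

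The other genes of MHC class I antigen processing were low in GMP leukemia in part. Of 9 tested, 5 were called higher and 2 lower in DN2 than in GMP leukemia, beside 21.0% and 18.8% of all genes. In LSK against GMP leukemia 5 were higher and 1 lower, beside 10.3% and 16.5% of all genes. Nlrc5, the transactivator of MHC class I genes, had a difference of 4.61 for DN2 over GMP leukemia (limma adjusted p = 1.71e-07), 3.71 for LSK over GMP leukemia (adjusted p = 5.21e-05) and -1.61 for GMP leukemia over healthy GMP cells (adjusted p = 0.0338). H2-K1, a classical MHC class I heavy chain, gave 1.40, 1.53 and -0.68, all called. Calr and Canx, chaperones of the endoplasmic reticulum, were instead lower in DN2 than in GMP leukemia, with differences of -0.59 and -0.35. Of the same 9 genes, 3 were called higher in DN2 leukemia than in healthy DN2 cells (9.49% of all genes were). They were Nlrc5 (1.92), H2-D1 (1.08) and H2-K1 (0.68). The interaction was called for 3 of the 9, beside 12.7% of all genes, namely Nlrc5 (3.53), H2-K1 (1.36) and Erap1 (1.23).

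Interferon response genes were highest in LSK leukemia and lowest in GMP leukemia by group mean. Their mean over 19 tested genes was 7.16 ± 1.07 in DN2 leukemia, 9.05 ± 1.07 in LSK leukemia, 6.07 ± 0.89 in GMP leukemia (SD), 7.03 in healthy DN2 and 6.18 in healthy GMP cells. LSK over GMP leukemia called 17 of 19 higher (10.3% of all genes were) and DN2 over GMP leukemia 7 of 19 (21.0% of all genes were). Among them was Irf1, an interferon-induced transcription factor, at 2.07 and 1.36. DN2 leukemia was below LSK leukemia in 11 of 19, beside 19.1% of all genes. These included Oasl2 at -5.00 and Rsad2 at -3.38, both antiviral effectors. Against healthy GMP cells, GMP leukemia was lower for 2 of 19, beside 13.1% of all genes. These were the guanylate-binding proteins Gbp3 (-4.58) and Gbp7 (-1.66), and the list's median difference was 0.06. Within DN2 leukemia, arrays 1 and 3 had the highest interferon means (8.16 and 8.46, the others 6.16 to 6.60). Array 3 also had the highest immunoproteasome mean, 11.67. Array 1, at 11.245, was no higher than array 4 (11.257), whose interferon mean was 6.60. Within LSK leukemia, array 2 had both the highest interferon mean (10.22) and the highest immunoproteasome mean (11.57). Arrays 1 and 3 there had interferon means of 8.13 and 8.79 and immunoproteasome means in the opposite order, 11.17 and 11.11. The part of interferon response genes in the immunoproteasome differences was not tested. Within GMP leukemia the interferon means of arrays 1 and 2 were lowest (5.13 and 5.11), and the immunoproteasome means were 10.04 and 10.42 there and 10.31 to 10.57 in the other 3.

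The constitutive subunits were measured at 6.93 to 12.16. Their mean per array was 10.40, 10.39, 10.64, 10.46 and 10.31 in DN2 leukemia, 10.07, 10.19 and 10.17 in LSK leukemia, 10.10, 10.63, 10.53, 10.72 and 10.34 in GMP leukemia, 10.64 and 10.71 in healthy DN2 and 10.86 and 10.89 in healthy GMP cells. Healthy GMP cells were above every leukemia array, healthy DN2 cells overlapped the highest of them, and GMP leukemia spread the most (SD 0.25, against 0.12 in DN2 and 0.07 in LSK leukemia). Between DN2 and GMP leukemia the subunits had a median difference of -0.02, beside 0.03 for all genes. Only Psmb5, the chymotrypsin-like catalytic subunit, was called there, at -0.40 ± 0.13 (limma adjusted p = 0.0272), which was 1 of 30 lower beside 18.8% of all genes. That call was lost when array 1, 2 or 5 of DN2 leukemia or array 3 or 4 of GMP leukemia was left out.

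Psmb5 was at 10.58, 10.59, 11.05, 10.90 and 10.45 in DN2 leukemia, at 10.89, 10.99, 11.30, 11.28 and 11.11 in GMP leukemia, and at 10.74, 10.60 and 10.77 in LSK leukemia. The DN2 and GMP leukemia ranges overlapped. Psmb6 and Psmb7, which carry the caspase-like and trypsin-like sites, had DN2 over GMP leukemia differences of 0.18 and -0.25, neither called. Their immunoproteasome counterparts Psmb8, Psmb9 and Psmb10 differed by 0.82 to 1.01 there, and the contrast between counterparts was not tested.

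Between DN2 and LSK leukemia, 8 of 30 constitutive subunits were called higher (28.4% of all genes were) and none lower (19.1% of all genes were), with a median of 0.31 beside 0.11 for all genes. After each array was centred on the median of the genes tested, these medians were 0.19 and -0.01. Of the alpha ring these were Psma2 (0.35), Psma3 (0.53) and Psma6 (0.49), and of the beta ring Psmb1 (0.61), a non-catalytic ring subunit. Of the 19S cap they were Psmd6 (0.46), Psmd7 (1.01), Psmd12 (0.74) and the deubiquitinase Psmd14 (0.40). None of the 5 ATPases was called, at 0.20 to 0.32. Psmd7, the partner of Psmd14 in the lid, was at 8.26, 8.51, 8.40, 8.33 and 8.40 in DN2 leukemia, against 7.57, 7.62 and 6.93 in LSK leukemia, without overlap (limma adjusted p = 0.00897). Its difference was 0.81 and not called without arrays 2 and 3 of LSK leukemia, and 0.32 and not called with the mean of its probe sets. Without those arrays, 6 of all 46 genes tested were called in place of 15.

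LSK leukemia was below GMP leukemia for 5 of 30 constitutive subunits, beside 16.5% of all genes, and above it for none. They were Psma3 (-0.52), Psmd2 (-0.41), Psmd6 (-0.60), Psmd7 (-1.07) and Psmd12 (-0.52), and 27 of the 30 differences were negative (23 after median centring), as were 54.6% over all genes. Without array 1 of GMP leukemia the count was 13 of 30, and without arrays 2 and 3 of LSK leukemia it was 1 (Psmb7). Array 1 of GMP leukemia was the lowest of its group for 26 of 30 constitutive subunits, and array 4 the highest for 18. Psmd7 in GMP leukemia was at 7.79, 8.96, 8.45, 9.16 and 7.90, and its 2 highest values were those of arrays 2 and 4. Those 2 arrays also had the highest Mpo, a marker of immature granulocytic cells, at 13.34 and 13.36 with 7.71 to 8.87 in the other 3, beside 13.88 and 13.95 in healthy GMP cells. In LSK leukemia, Mpo was highest in array 3 (11.70), and Psmd7 was lowest in that array. The part of Mpo in the constitutive level was not tested.

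GMP leukemia was below healthy GMP cells for all 30 constitutive subunits and for all 46 genes tested, where 59.6% of all genes had a negative difference. After median centring these counts were 29 and 44, and with the most variable probe set of each gene 29 and 43. Of the 30, 6 were called lower, beside 13.1% of all genes, and their median was -0.41 beside -0.12. The 6 were the catalytic Psmb6 (-0.67), the ATPases Psmc1 (-0.69) and Psmc3 (-0.64), the scaffold Psmd1 (-0.86), and Psmd6 (-0.54) and Psmd13 (-0.55) of the lid. No gene of the 46 was called higher, where 8.09% of all genes were. Without either healthy GMP array, 1 of the 46 (Psma8) was called rather than 11.

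Psmb6 was at 9.99, 10.36, 10.57, 10.67 and 10.24 in GMP leukemia, against 11.03 and 11.04 in healthy GMP cells (limma adjusted p = 0.0218). Psmd1, which binds ubiquitin receptors in the base of the cap, was at 9.90, 10.42, 10.19, 10.11 and 9.33 in GMP leukemia, against 10.81 and 10.88 in healthy GMP cells (adjusted p = 0.0261). It was also lower in DN2 leukemia, at 10.16, 9.89, 10.17, 10.06 and 9.40, against 10.84 and 10.84 in healthy DN2 cells (-0.90 ± 0.25, adjusted p = 0.0176). No leukemia array of Psmd1 reached a healthy one.

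In DN2 leukemia against healthy DN2 cells, 2 of 30 constitutive subunits were called lower, beside 13.7% of all genes, and none higher, beside 9.49%. These were Psmd1 and Psmc1, an ATPase of the cap. Psmc1 was at 9.32, 9.35, 9.57, 9.40 and 9.22 in DN2 leukemia, against 10.22 and 10.27 in healthy DN2 cells, a difference of -0.88 ± 0.15 (limma adjusted p = 0.000725). In GMP leukemia it was at 9.07, 9.49, 9.46, 9.58 and 9.34, against 10.07 and 10.08 in healthy GMP cells (-0.69 ± 0.15, adjusted p = 0.00595). Psmc1 thus separated leukemia from healthy cells in both lineages. Over all 46 genes 4 were called lower and 0 higher in DN2 leukemia, of which Psmc1 and Psma8 stayed called without array 1 of healthy DN2 cells and Psmc1 alone without array 2. Healthy DN2 and healthy GMP cells differed in 0 of 30 constitutive subunits by limma (2 of 30 at an unadjusted p under 0.05), while 11.2% of all genes were called in either direction, and 27 of 30 differences were negative, as were 55.2% over all genes. The interaction called 0 of 30, beside 12.7% of all genes, with 1 of 30 at an unadjusted p under 0.05.

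**Figure D3:**
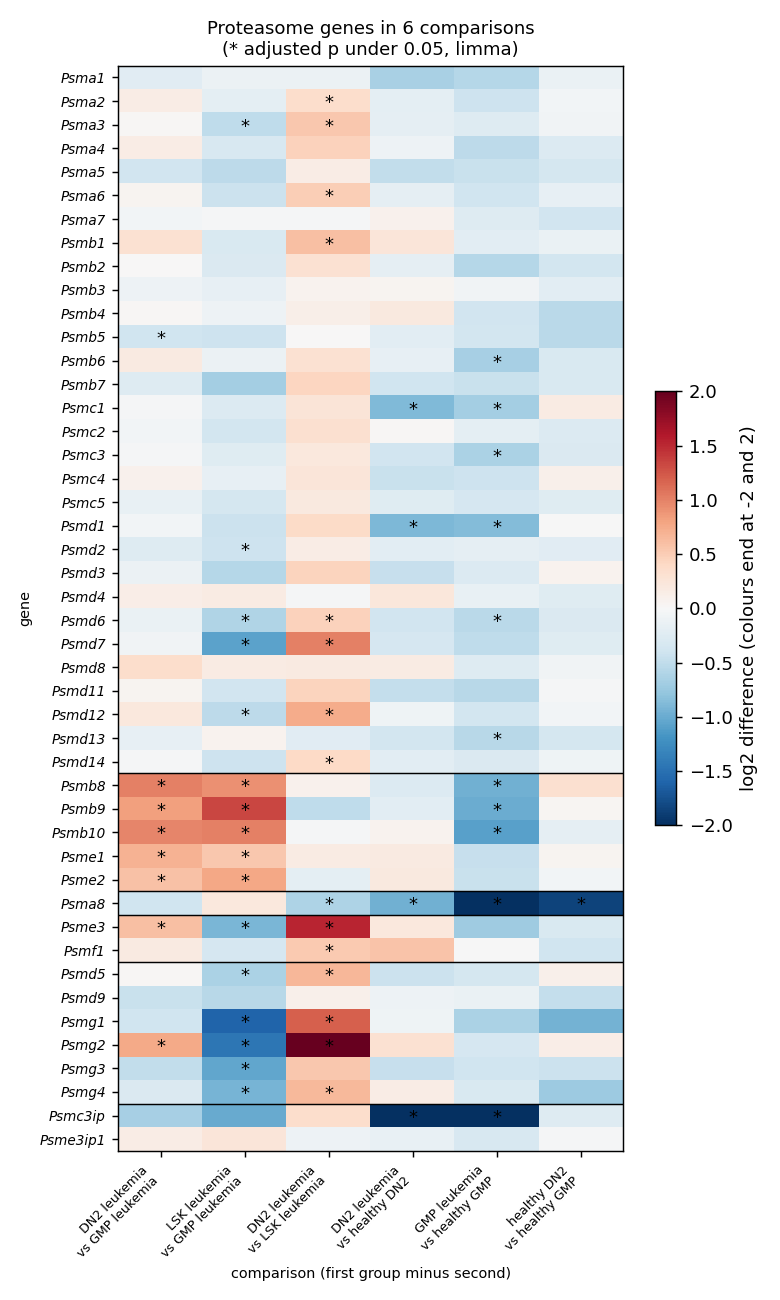
Log2 difference (colour, first group minus second) of the 46 genes tested in 6 comparisons, ordered by role and separated by lines, with stars for an adjusted p under 0.05. The 5 immunoproteasome genes are positive over GMP leukemia in DN2 and LSK leukemia, assembly chaperones are negative in LSK against GMP leukemia, and every gene is negative in GMP leukemia against healthy GMP cells.

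The assembly chaperones were lowest in LSK leukemia for 6 of 6 genes. Their mean was 9.09 ± 0.13 in DN2 leukemia, 8.19 ± 0.29 in LSK leukemia, 9.23 ± 0.30 in GMP leukemia (SD), 9.19 in healthy DN2 and 9.58 in healthy GMP cells. DN2 over LSK leukemia called 4 of 6 higher, beside 28.4% of all genes, with a median of 0.65 beside 0.11. LSK against GMP leukemia called 5 of 6 lower, beside 16.5% of all genes, with a median of -0.98 beside -0.06. Only Psmd9, a chaperone of the cap ATPases, was called in neither, while Psmd5, another cap chaperone, gave 0.66 and -0.64.

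Psmg1, which with Psmg2 forms the chaperone that builds the alpha ring, was at 9.48, 9.83, 9.94, 9.77 and 8.77 in DN2 leukemia, at 9.15, 7.97 and 7.94 in LSK leukemia and at 9.46, 10.37, 9.80, 10.54 and 9.62 in GMP leukemia. Healthy DN2 cells had 9.55 and 9.75 and healthy GMP cells 10.46 and 10.72. Arrays 2 and 3 of LSK leukemia, those with Mycn at the healthy level, were more than 1 log2 unit below array 1. LSK leukemia was 1.60 ± 0.33 below GMP leukemia (limma adjusted p = 0.00289, 3.04-fold lower), and DN2 leukemia 1.20 ± 0.33 above LSK leukemia (adjusted p = 0.00838). Without arrays 2 and 3 the differences were -0.81 and 0.41, and neither was called.

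Psmg2 was at 9.96, 10.69, 10.17, 10.51 and 10.58 in DN2 leukemia, at 8.79, 7.88 and 7.84 in LSK leukemia, at 9.47, 9.79, 9.44, 9.95 and 9.46 in GMP leukemia, at 10.07 and 10.10 in healthy DN2 and at 10.00 and 9.91 in healthy GMP cells. The 3 leukemias did not overlap one another. DN2 leukemia was 2.21 ± 0.23 above LSK leukemia (limma adjusted p = 2.88e-06, 4.63-fold), the widest gap of the 46 genes in that comparison, and 0.76 ± 0.20 above GMP leukemia (adjusted p = 0.00619). LSK leukemia was 1.45 ± 0.23 below GMP leukemia (adjusted p = 0.000427). A second probe set gave 2.44, 0.79 and -1.65.

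Psmg3 and Psmg4, which form the partner chaperone of the alpha ring, were lower in LSK than in GMP leukemia, with differences of -1.03 ± 0.23 (limma adjusted p = 0.00422) and -0.92 ± 0.23 (adjusted p = 0.00751). Psmg3 was at 8.12, 7.81 and 8.06 in LSK leukemia, against 8.66, 9.45, 8.70, 9.57 and 8.77 in GMP leukemia, without overlap. Psmg4 was at 8.24, 8.11 and 7.58 in LSK leukemia, against 8.15, 9.09, 9.02, 9.22 and 9.03 in GMP leukemia, where array 1 lay within the LSK range. Without arrays 2 and 3 of LSK leukemia, none of the 6 chaperones was called by limma in LSK against GMP leukemia, and 1, Psmg2, was in DN2 over LSK leukemia. No assembly chaperone was called between leukemia and healthy cells in either lineage, with 1 of 6 at an unadjusted p under 0.05 for DN2 and 0 of 6 for GMP in limma. Of all genes, 9.49% were called higher and 13.7% lower in the DN2 pair, and 8.09% higher and 13.1% lower in the GMP pair.

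**Figure D4:**
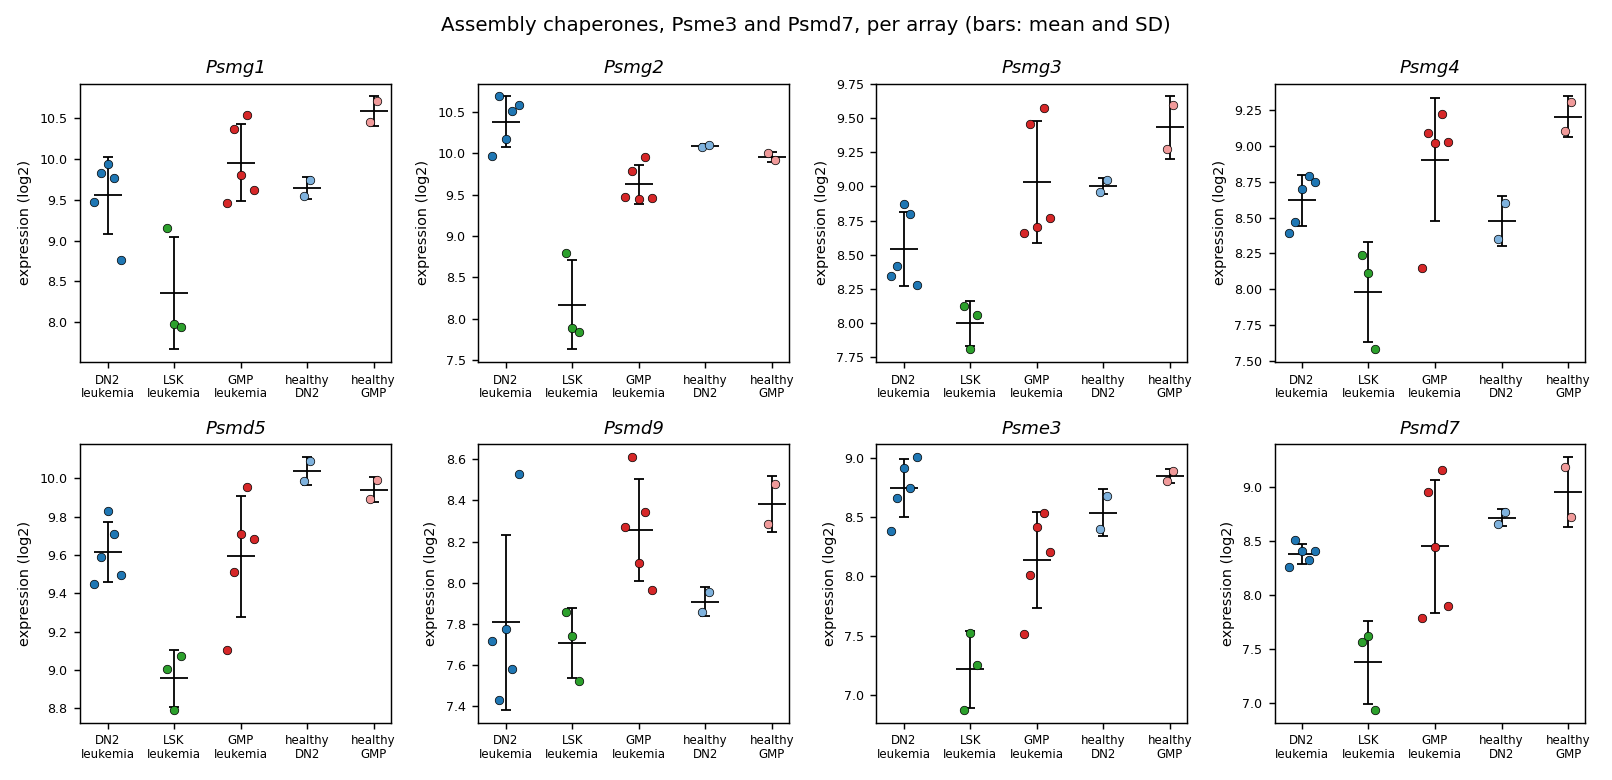
Log2 expression of the 6 assembly chaperones, the activator Psme3 and the cap subunit Psmd7 in each array (points), with the mean and SD per group (bars). LSK leukemia has the lowest mean for each of the 8 genes, and for Psmg1 and Psmg2 its upper point is array 1 (9.15 and 8.79).

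Psme3, which encodes the nuclear activator PA28gamma, was lowest in LSK leukemia, as the chaperones were. It was at 8.38, 8.66, 8.92, 8.74 and 9.01 in DN2 leukemia, at 6.87, 7.52 and 7.26 in LSK leukemia, at 7.52, 8.01, 8.42, 8.54 and 8.20 in GMP leukemia, at 8.40 and 8.68 in healthy DN2 and at 8.80 and 8.89 in healthy GMP cells. DN2 leukemia was 1.53 ± 0.22 above LSK leukemia (limma adjusted p = 7.61e-05, 2.88-fold) and 0.61 ± 0.19 above GMP leukemia (adjusted p = 0.0215), while LSK leukemia was 0.92 ± 0.22 below GMP leukemia (adjusted p = 0.0073). A second probe set gave 1.57, 0.29 and -1.28, and with it the DN2 over GMP leukemia difference was not called. Among the printed sequences, those of Psme3 and Psmb10 held an E-box, 44 and 116 bases before the start. Psmf1, an inhibitor of the core, was at 7.80, 7.81, 7.79, 7.93 and 8.30 in DN2 leukemia, against 7.36, 7.75 and 7.10 in LSK leukemia (0.52 ± 0.20, adjusted p = 0.0391). That call was lost in 11 of 20 alternatives, among them quantile normalization (0.44), median centring (0.41) and leaving out arrays 2 and 3 of LSK leukemia (0.57). With its most variable probe set, Psmf1 was also called in DN2 over GMP leukemia, at 0.68 (limma adjusted p = 0.000445), against 0.18 with the brightest one. Its 4 probe sets differed in sign for leukemia against healthy GMP cells (-0.22 to 0.35).

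Psma8, the alpha subunit of the testis proteasome, was close to background in most arrays. It was at 2.70 to 3.07 in DN2 leukemia, 3.44 to 3.62 in LSK leukemia and 2.92 to 4.12 in GMP leukemia, against 3.72 and 4.06 in healthy DN2 and 5.65 and 5.85 in healthy GMP cells. Only the healthy groups had a mean above the median of all values (3.83), so Psma8 was tested through them alone. The difference of GMP leukemia from healthy GMP cells, -2.42 ± 0.25 (limma adjusted p = 8.27e-06), is therefore compressed by the background. Healthy DN2 cells differed by -1.86 ± 0.30 from healthy GMP cells (adjusted p = 0.000621), the only gene of 46 called there, and Psma8 was also the only one with a called interaction, 1.46 ± 0.35 (adjusted p = 0.0121), which was lost without array 1 of healthy DN2 or array 2 of healthy GMP cells. With both leukemias at background, the interaction of Psma8 cannot be told apart from the difference between the healthy groups. The call of Psma8 in DN2 against LSK leukemia (-0.61, limma adjusted p = 0.0302) compared means that were both below that median. Psmb11, the catalytic subunit of thymic epithelium, was at 2.89 to 3.40 in all 17 arrays.

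Psmc3ip, which encodes a meiotic recombination factor and no subunit, was at 6.02, 5.52, 7.35, 6.34 and 5.21 in DN2 leukemia, against 8.68 and 8.84 in healthy DN2 cells. In GMP leukemia it was at 5.38, 7.06, 6.73, 8.18 and 6.38, against 8.93 and 9.10 in healthy GMP cells, and in LSK leukemia at 5.05, 5.96 and 6.18. Every leukemia array was below every healthy one. The difference was -2.67 ± 0.62 for DN2 (limma adjusted p = 0.00553, 6.38-fold lower) and -2.28 ± 0.62 for GMP (adjusted p = 0.0178, 4.84-fold lower). Psme3ip1, whose product binds PA28gamma, was called in no comparison, at -0.32 to 0.25.

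Of 18 other regulators of the proteasome listed, 12 were tested. DN2 leukemia was below GMP leukemia for 4 of 12 (18.8% of all genes were) and above it for none (21.0% of all genes were). The lower ones were led by the stress factor Nfe2l2 (-1.15) and the cap component Sem1 (-0.92). LSK leukemia was below GMP leukemia for 3 of 12, beside 16.5% of all genes. These were the scaffold Ecpas (-1.51) and the cap deubiquitinases Usp14 (-1.42) and Uchl5 (-1.06). DN2 over LSK leukemia called 4 of 12 higher (28.4% of all genes were) and 3 lower (19.1% of all genes were). Usp14 was at 0.77, Nfe2l2 at -1.71 and Sem1 at -0.79. GMP leukemia was below healthy GMP cells for Pomp, the maturation factor of the core (-0.70), and for Nfe2l1, a transcription factor of proteasome genes (-0.51), and above them for Ngly1 (0.71), which processes Nfe2l1. Of all genes, 13.1% were lower and 8.09% higher in that comparison. Among the 12 regulators, only Ecpas (-0.99) was called between DN2 leukemia and healthy DN2 cells, beside 9.49% of all genes higher and 13.7% lower.

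Genes of ubiquitin supply and delivery were tested for 9 of 17 listed. LSK leukemia was below GMP leukemia for 4 of 9, beside 16.5% of all genes. These were the shuttle factors Ubqln4 (-1.36), Rad23b (-0.93) and Ubqln1 (-0.66) and the Vcp cofactor Nploc4 (-0.56). DN2 over LSK leukemia called 4 of 9 higher (28.4% of all genes were) and 2 lower (19.1% of all genes were). Among the higher were Ubqln4 at 1.34 and Rad23b at 0.90. Ubqln2, another shuttle factor, was lower in both leukemias than in their healthy cells, with differences of -0.88 for DN2 (limma adjusted p = 0.00256) and -1.26 for GMP (adjusted p = 0.000214). DN2 against GMP leukemia called 1 of 9 higher, Ubqln2 (0.81), beside 21.0% of all genes. It called 1 of 9 lower, the ubiquitin-activating enzyme Uba6 (-0.43), beside 18.8% of all genes.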

How the data were processed

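The deposited values are log2 expression per probe set, made by the authors with RMA and affy per the submitters' processing notes. The sources used here give neither versions nor whether arrays were normalized jointly. The table held 45141 probe sets, 104 of them controls that were left out. Array medians were 3.80 to 3.86 and values 2.18 to 14.25, so a level near 3.8 is background. Correlations between replicates were 0.907 or higher in every group. The platform annotation gave 28898 probe sets 1 symbol, of which 28689 matched RefSeq (GRCm38.p6) by Entrez identifier for current names; probe sets with several symbols or none were not named. Of the 47 genes, 17 had more than 1 probe set.

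Differences were tested in R 4.3.3 with limma 3.58.1 (lmFit, eBayes; 2-sided), fitting 1 mean per group to all 17 arrays, over the 11625 genes with a group mean above the median value. The procedure was tested on simulated data. Figures and motif counts used Python 3.11.15.

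The genes and the lists were chosen with earlier results of these data known, and counts over lists are descriptions. Described one by one were the immunoproteasome genes with Psmb5 to Psmb7, the activators, inhibitor, chaperones, tissue-restricted and prefix-only genes, the called genes with the 3 largest rises and falls per comparison, and up to 3 per list; other called genes are named with their difference only. Deviations of same-numbered arrays from their group means had correlations of -0.30 to 0.25. The replicate numbers are not stated to pair arrays, so no replicate pairing was used. The number of arrays limits the precision.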

Additional observations from a re-analysis of the deposited data

Results flagged for a closer look

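Of 40 groups of 5 arrays examined for 1 array far from the others, 3 stood out, and chance gives about 1 in 20. Psmf1 was at 8.30 in array 5 of DN2 leukemia, with 7.79 to 7.93 in the other 4. Psmg4 was at 8.15 in array 1 of GMP leukemia, with 9.02 to 9.22 in the others, and that array was also the lowest of its group for 26 of 30 constitutive subunits. Psma8 was at 4.12 in the same array, with 2.92 to 3.27 in the others, a range close to background.

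The leukemia-minus-healthy difference of Psma8 was -0.96 for DN2 and -2.42 for GMP, a signed difference of 1.46 (limma adjusted p = 0.0121). Both leukemias lie at background for Psma8, and the healthy levels were 3.72 and 4.06 for DN2 and 5.65 and 5.85 for GMP.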

How the results depend on the processing

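Of 2539 values recomputed for single genes under the alternatives, 2381 stayed on their side of the threshold, 90 lost the call and 68 gained one. The sign changed in 71 of those that stayed, none of them called, and in no value that was called in either setting. The number of the 46 genes called depended more on the setting. It was 8 for DN2 against GMP leukemia (7 to 10 with 1 array left out), 15 for DN2 against LSK leukemia (7 to 15) and 16 for LSK against GMP leukemia (11 to 25). Without arrays 2 and 3 of LSK leukemia these last 2 counts were 6 and 3. For DN2 leukemia against healthy DN2 cells it was 4 (1 to 5 with 1 array left out), for GMP leukemia against healthy GMP cells 11 (1 to 16), between healthy groups 1 (1 to 1) and for the interaction 1 (0 to 3, and 3 without array 5 of DN2 leukemia). With limma's array weights it was 19 for DN2 leukemia against healthy cells, 32 for GMP leukemia against healthy cells, 18 between healthy groups and 14 for the interaction. With only the groups compared in the fit it was 8 for LSK against GMP leukemia, 9 and 5 for DN2 and GMP leukemia against healthy cells, and 10 between healthy groups. With only genes above a log2 level of 6 tested, the healthy comparison and the interaction had 0, since Psma8 was then not tested. With the replicate number as a block the interaction count was 2, and the counts of all other comparisons stayed within 1.5 times. Psme1 lost its call in LSK over GMP leukemia with that block (limma adjusted p = 0.0537). The replicate numbers are not stated to pair arrays. The cause of the other changes was not tested.

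The median of the 5 immunoproteasome genes in LSK over GMP leukemia was 1.19 with array weights, against 0.91. In GMP leukemia against healthy GMP cells it was -0.46 with the mean of all probe sets or the most variable one, against -0.97. Signal over background limits Psma8 and Psmb11, and 2 healthy arrays per lineage limit every comparison with healthy cells.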
